A study of Capra hircus with 21 samples.

Results

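The 7 genes described here write, copy or remove methyl groups on DNA, or are tied to those steps. DNMT1 serves maintenance, and UHRF2 is a relative of the maintenance factor UHRF1. DNMT3A and DNMT3B serve de novo methylation, TET1 and TET3 oxidise methylcytosine, and GADD45A is tied to demethylation coupled to repair. The 7 genes were taken by gene symbol from a table of 19040 genes, and all 7 symbols were found, each in a single row. The table holds RNA sequencing values for goat (Capra hircus) material developed in the animal: oocytes that matured in vivo, and embryos with 2, 4, 8 or 16 cells, morulae and blastocysts. Each of the 7 stages has 3 libraries, lettered A to C, 21 in all, and no group carries a treatment, a transgene or a mutant allele in the labels. The labels give neither the breed, the age of the donors nor the number of oocytes or embryos in a library, and they do not state whether the 3 libraries of a stage stem from different animals or pools. A p-value here thus reflects the spread among these libraries, which may be technical.

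DNA methylation is the addition of a methyl group to cytosine, mostly where it is followed by guanine. DNMT1 copies the pattern onto the new strand after replication and is recruited by UHRF1, a protein that binds DNA methylated on a single strand. UHRF2 is the close relative of UHRF1. DNMT3A and DNMT3B place methyl groups on unmethylated DNA. TET enzymes oxidise methylcytosine to hydroxymethylcytosine and further products, which are lost by replication or by base excision repair. Mammalian embryos lose most of the methylation inherited from the gametes during cleavage and regain it around implantation, and early cleavage runs on RNA stored in the oocyte until the embryonic genome becomes active.

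The deposited values were RPKM, that is, read counts divided by gene length in kilobases and by library size. Here the kilobases were those of the whole gene span, introns included, so a long gene stands low whatever the length of its mRNA. Levels are therefore given as RPM, reads per 1000000 reads of the library, with the span multiplied back out, and as mean ± SD over 3 libraries where a mean is given. RPM served to compare stages of a gene, not the levels of different genes. A ratio of 2 genes, on RPM + 1, is given only to follow it across libraries. Their lengths cancel out there only where both genes stand well above 1 RPM. Changes between stages are differences on the log2(RPM + 1) scale, which understates the change of low genes. They were tested with limma over 10384 genes with at least 1 RPM in at least 3 libraries. A gene was called higher or lower at a Benjamini-Hochberg adjusted p under 0.05 with a change of at least 1 on the log2 scale. All 7 genes passed this filter, and RPM is a share of a library, so fewer cells of a type and less RNA per cell cannot be told apart.

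The deposited values implied totals of 24.0 to 66.6 M reads per library, of which 24.4% to 42.0% lay in the listed genes. Oocyte markers such as BTG4, GDF9 and BMP15 summed to 5556 to 12613 RPM in the oocyte libraries and 0.398 to 2.33 RPM in the blastocyst libraries. Blastocyst markers, led by the keratin gene KRT8, summed to 12.2 to 19.7 RPM in oocytes and 800.1 to 1419 RPM in blastocysts. KRT8 alone made up 766 to 1337 RPM in blastocysts, so this sum mostly follows a single gene. KRT8, GATA2, GATA3 and CDX2, the last at no more than 1.35 RPM, were higher in every blastocyst library than in every morula library. TFAP2C was lower in every blastocyst library, and NANOG and GATA6 overlapped. Markers of blood cells summed to at most 3.60 RPM at any stage. The list for cumulus and granulosa cells, which surround the oocyte, had 3 of 10 measured genes at a mean of 1 RPM or more in oocytes, led by VCAN, with a summed level of 94.3 to 135.7 RPM and FSHR and AMH at 0. This list summed to 173 to 204 RPM at the 8-cell stage, 46.6 to 89.8 at the 16-cell stage and 4.55 to 13.2 in blastocysts, and to 94.1 RPM in morula C against 3.34 and 5.50 in morulae A and B. VCAN alone averaged 168 RPM at the 8-cell stage, so this sum mostly followed a single gene there. Libraries 16-cell C and morula C stood apart: 26.3% and 32.4% of genes were at least 2 times as high there as in both libraries of the same stage. The summed oocyte markers were highest in these libraries, at 2895 RPM in 16-cell C against a stage minimum of 839.7 and at 1176 RPM in morula C against 37.8. Morula A is labelled as submitted without its reverse reads, whose file was corrupt.

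**Figure D1:**
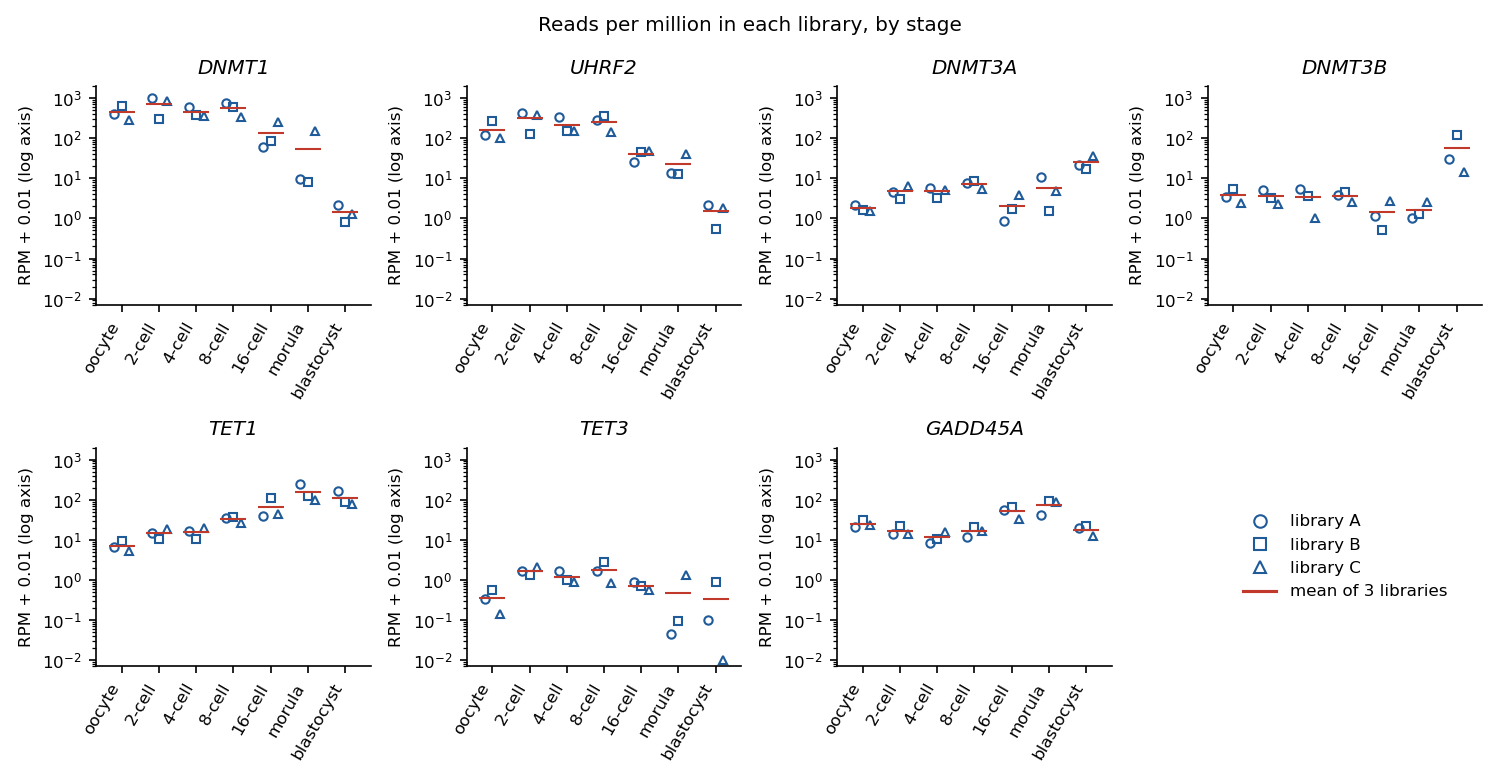
Level of each of the 7 genes in each of the 21 libraries, as RPM + 0.01 on a log axis, by stage. Circles, squares and triangles are libraries A, B and C and red lines are means of 3 libraries; DNMT1 and UHRF2 drop after the 8-cell stage, while DNMT3B stands at 14.2 to 122 RPM in blastocysts and at no more than 5.52 RPM in any other library.

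DNMT1, the maintenance methyltransferase, was abundant from the oocyte to the 8-cell stage and fell from there to the blastocyst. The gene lies on chromosome 7 at 94593298 to 94637220 on the minus strand of the table's coordinates, a span of 43.9 kb. The genome build is not given in the sources used here, for this and the other positions. DNMT1 stood at 406, 638 and 279.8 RPM in oocytes A, B and C, at 980.2, 298 and 845 in the 2-cell libraries, at 595, 385 and 353 in the 4-cell libraries and at 769, 611 and 345 in the 8-cell libraries. These 4 stages overlapped one another. The level was then 60.9, 83.7 and 250.0 RPM in 16-cell embryos, 9.65, 8.29 and 148 in the morulae and 2.16, 0.790 and 1.25 in blastocysts. Each blastocyst library still held 44 to 98 DNMT1 reads. All 16-cell libraries lay below all 8-cell libraries, and all blastocysts below all morulae, whereas 16-cell and morula libraries overlapped.

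From the 8-cell to the 16-cell stage DNMT1 fell by 2.32 on the log2 scale (SE 0.76, limma adjusted p = 0.0143), from 575 ± 214 to 132 ± 103 RPM. The adjusted p rose to 0.0552 without 8-cell A, 0.0760 without 16-cell A and 0.0524 without 16-cell B, and without 16-cell C the change was -2.92 (adjusted p = 0.00468). From the 16-cell stage to the morula the change was -2.16 (SE 0.76, adjusted p = 0.0497), at the edge of the threshold. That call was lost in 19 of the 21 fits that left out a library, among them those without 16-cell C (-1.56, adjusted p = 0.214), morula A (-1.56, 0.247) and morula B (-1.46, 0.249). Without morula C, the change was -3.46 (adjusted p = 6.6e-05). From morula to blastocyst DNMT1 fell by 3.39 (SE 0.76, adjusted p = 0.00123), and by 2.09 without morula C (adjusted p = 0.00609). The fall was not called when limma weighted each library by its fit to the model (-2.66, adjusted p = 0.0612), the setting called library weights below. Between oocyte and blastocyst it fell by 7.48 (SE 0.76, adjusted p = 3.42e-08), and the oocyte mean was 315-fold that of the blastocyst.

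UHRF2, a RING finger protein that binds modified cytosine, followed nearly the same course. Its row lies on chromosome 8 at 38179789 to 38250380, minus strand. It stood at 118, 273 and 98.5 RPM in oocytes, 421, 129 and 383 at the 2-cell stage, 332, 148 and 155 at the 4-cell stage and 288, 354 and 139 at the 8-cell stage. The 16-cell libraries held 26.2, 45.7 and 48.7 RPM, the morulae 13.9, 12.5 and 40.8 and the blastocysts 2.19, 0.526 and 1.79. As for DNMT1, the 4 early stages overlapped, the 16-cell libraries all lay below the 8-cell libraries and the blastocysts all below the morulae. UHRF2 fell by 2.61 from the 8-cell to the 16-cell stage (SE 0.55, limma adjusted p = 0.000644), and that call stood in each of the 21 fits that left out a library, with adjusted p up to 0.00653. The next step, to the morula, was -0.97 and was not called (adjusted p = 0.218), although it was called without morula C (-1.49, adjusted p = 0.0398). UHRF2 fell by 3.09 from morula to blastocyst (SE 0.55, adjusted p = 0.000135), a call lost with library weights (-2.88, adjusted p = 0.0528). From oocyte to blastocyst the change was -5.96 (SE 0.55, adjusted p = 6.81e-09), with means 109-fold apart.

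Libraries of a stage that were high or low for DNMT1 tended to be so for UHRF2, but not everywhere. Library 16-cell C held 250.0 RPM of DNMT1, against 60.9 and 83.7 in 16-cell A and B. For UHRF2 it held 48.7 RPM, against 26.2 and 45.7. Library 2-cell B was at most 0.5 times both other 2-cell libraries for both genes, as were 6.96% of all genes tested there. Morula C was at least 2 times both other morulae for both. It also had the highest sums of its stage for the oocyte list and for the cumulus and granulosa list. The latter sum came mostly from VCAN, TNFAIP6 and STAR, at 41.9, 38.7 and 12.3 RPM. FSHR, PTX3, AMH and FST were at 0 in morula C, and CD44 was lower there than in both other morulae. Both marker sums were also lower in every 16-cell library than in every 8-cell library, and their part in the DNMT1 and UHRF2 values was not tested. Over the 21 libraries the Pearson correlation of log2(RPM + 1) between the pair was 0.979, given as a description, since these points share stage, library and depth. The log2 ratio of DNMT1 to UHRF2, on RPM + 1, was 1.50 ± 0.28 in oocytes and between 1.13 and 1.19 on average at the 2-cell to 8-cell stages. It was 1.46 ± 0.78 at the 16-cell stage and 0.27 ± 1.35 in morulae, where it ranged from -0.53 to 1.83. In blastocysts, where both genes stood near 1 RPM, it was -0.03 ± 0.27.

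UHRF1, the partner of DNMT1 at replicated DNA, is not among the 7 genes and was looked up for comparison after its values had been seen. Its mean was 72.1 ± 22.4 RPM in oocytes, 72.3 ± 20.4 with 8 cells and 17.3 ± 14.1 with 16, then 8.31 ± 12.4 in the morula and 1.68 ± 0.998 in the blastocyst. UHRF1 fell from the 8-cell to the 16-cell stage (-2.23, SE 0.66, limma adjusted p = 0.00762) and from oocyte to blastocyst (-4.78, SE 0.66, adjusted p = 1.69e-06). The morula to blastocyst step, called for UHRF2, was -0.89 and not called for UHRF1 (adjusted p = 0.299), and the difference between these genes was not tested.

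The de novo methyltransferase genes DNMT3A and DNMT3B stood low through cleavage and highest in blastocysts. DNMT3A lies on chromosome 11 at 73706214 to 73777902 on the plus strand. It stood at 2.20, 1.58 and 1.55 RPM in oocytes, 4.43, 3.06 and 6.54 at the 2-cell stage, 5.81, 3.18 and 5.16 at the 4-cell stage and 7.45, 8.49 and 5.35 at the 8-cell stage. All 2-cell libraries lay above all oocyte libraries, yet the change of 0.99 was not called (adjusted p = 0.131). The 16-cell libraries held 0.860, 1.68 and 3.72 RPM, the morulae 10.7, 1.54 and 4.90 and the blastocysts 22.0, 17.4 and 36.9. Morula A was the highest and morula B the lowest of its stage, and every blastocyst library exceeded every other library of the series.

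DNMT3A fell by 1.48 from the 8-cell to the 16-cell stage (SE 0.46, limma adjusted p = 0.00996), a call lost without 16-cell A (-1.17, adjusted p = 0.0669) and under a pseudocount of 5 (-0.78, adjusted p = 0.0200, below the required size of change). The step to the morula was 0.97 and was not called (adjusted p = 0.139), but without morula B it was 1.53 (adjusted p = 0.0254). DNMT3A rose by 2.17 from morula to blastocyst (SE 0.46, adjusted p = 0.00066), from 5.71 ± 4.63 to 25.4 ± 10.2 RPM. Against the oocyte the blastocyst was 14.3-fold higher on means, a log2 change of 3.19 (SE 0.46, adjusted p = 2.78e-06).

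DNMT3B, on chromosome 13 at 61467502 to 61502405 on the plus strand, was higher in blastocysts than at any other stage. It stood at 3.47, 5.52 and 2.37 RPM in oocytes, 5.13, 3.14 and 2.31 at the 2-cell stage, 5.31, 3.66 and 0.985 at the 4-cell stage and 3.81, 4.66 and 2.56 at the 8-cell stage. The 16-cell libraries held 1.11, 0.503 and 2.75 RPM and the morulae 1.03, 1.25 and 2.55, against 30.4, 122 and 14.2 in blastocysts. The blastocyst libraries were far apart from one another, with B the highest and C the lowest, but all 3 lay above every earlier library. DNMT3B rose by 3.94 from morula to blastocyst (SE 0.56, limma adjusted p = 9.57e-06), on means from 1.61 ± 0.822 to 55.4 ± 57.9 RPM. Without blastocyst B the change was 3.11 (adjusted p = 7.48e-05), and without blastocyst C it was 4.61 (adjusted p = 1.63e-06). From oocyte to blastocyst the change was 3.07 (SE 0.56, adjusted p = 5.2e-05), and 2.24 without blastocyst B (adjusted p = 0.000496). No step before the morula was called for DNMT3B, the largest being -1.01 from the 8-cell to the 16-cell stage (adjusted p = 0.127). That step was called with library weights (-1.32, adjusted p = 0.0289) and when only the libraries of these stages were fitted (adjusted p = 0.0325).

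The ratio of the pair varied between libraries of most stages, and most widely between blastocysts. The log2 ratio of DNMT3B to DNMT3A on RPM + 1 ranged from -1.32 to 2.74 over the 3 blastocyst libraries and averaged 0.62 ± 2.03. It was -0.53 ± 0.96 at the 4-cell stage and -1.14 ± 1.23 in morulae. Its spread was smallest at the 8-cell stage, at -0.80 ± 0.05. Blastocysts B and C also stood apart more widely. In B, 27.5% of genes were at most 0.5 times and 16.9% at least 2 times both other blastocysts. In C, these shares were 18.1% and 20.8%. Blastocyst C had 40.5% of its reads in the listed genes, against 24.4% in A and 24.9% in B. The part of these differences in the DNMT3B values was not tested.

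**Figure D2:**
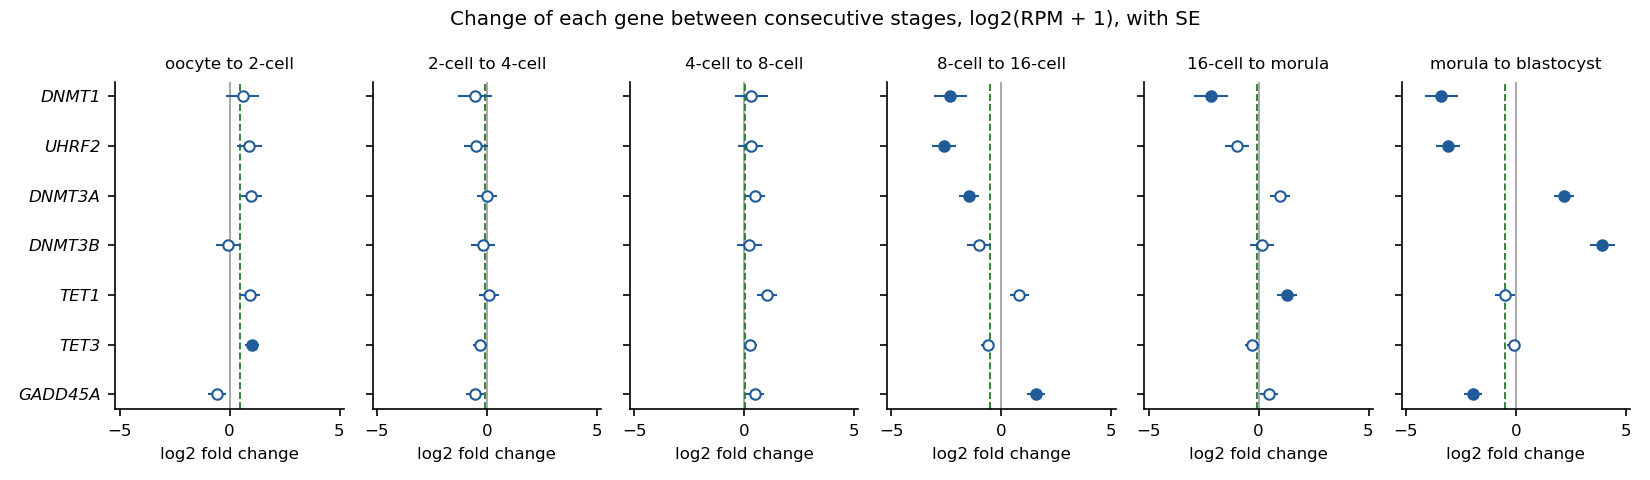
Change of each of the 7 genes between consecutive stages, as difference of log2(RPM + 1) with its standard error from limma, 1 panel per step. Filled points were called, open points were not, and the green dashed line is the median of the 10384 genes tested; the filled points lie mostly in the steps from 8-cell to 16-cell and from morula to blastocyst.

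TET1, a methylcytosine dioxygenase found in pluripotent cells, rose from oocyte to blastocyst, while DNMT1 fell. It lies on chromosome 28 at 20603739 to 20724960 on the minus strand, at 121.2 kb the longest of the 7 spans. It stood at 6.67, 9.57 and 5.18 RPM in oocytes, 14.4, 10.6 and 18.2 at the 2-cell stage, 16.6, 10.7 and 19.5 at the 4-cell stage and 35.5, 36.5 and 25.7 at the 8-cell stage. The 16-cell libraries held 39.2, 110.5 and 43.9 RPM, the morulae 243, 126 and 95.8 and the blastocysts 161, 85.8 and 76.0. Libraries did not overlap between oocyte and 2-cell, between 4-cell and 8-cell or between 8-cell and 16-cell, whereas 16-cell, morula and blastocyst libraries overlapped.

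Of the 6 consecutive steps only that from 16-cell to morula was called for TET1, with a change of 1.30 (SE 0.45, limma adjusted p = 0.0444). The call was lost in 14 of the 21 fits without a library, with adjusted p up to 0.251 without morula A, and under 7 of 12 other settings. The step from 4-cell to 8-cell was 1.04 (SE 0.45, adjusted p = 0.461), and that from 8-cell to 16-cell was 0.82 (adjusted p = 0.122). Under median-ratio scaling and quantile normalization the latter was called, at 1.35 (adjusted p = 0.0158) and 1.29 (adjusted p = 0.0191). Over longer spans TET1 rose by 2.12 from 8-cell to morula (SE 0.45, adjusted p = 0.000306) and by 3.69 from oocyte to blastocyst (SE 0.45, adjusted p = 2.92e-07). Blastocysts stood 15.1-fold above oocytes on means, at 108 ± 46.4 against 7.14 ± 2.23 RPM. The morula to blastocyst change was -0.49 (adjusted p = 0.403), and 0.45 under both median-ratio scaling and quantile normalization.

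TET3, the TET enzyme known for oxidising methylcytosine in the zygote, was the least covered of the 7 genes, with no library above 138 reads. It lies on chromosome 11 at 10431574 to 10484652 on the minus strand. It stood at 0.322, 0.554 and 0.129 RPM in oocytes, 1.70, 1.31 and 2.07 at the 2-cell stage, 1.65, 0.979 and 0.894 at the 4-cell stage and 1.66, 2.75 and 0.805 at the 8-cell stage. All 2-cell libraries were above all oocyte libraries, which held 17, 26 and 7 reads. The 16-cell libraries held 0.899, 0.679 and 0.535 RPM, the morulae 0.0357, 0.0833 and 1.28 and the blastocysts 0.0884, 0.895 and 0. In morulae that is 2, 2 and 80 reads, and in blastocysts 4, 51 and 0, so within each of these stages a single library held most TET3 reads: morula C and blastocyst B. A count of 0 allows up to 3 reads, which is 0.0450 to 0.125 RPM depending on the library, for counting error only.

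TET3 rose by 1.01 from oocyte to 2-cell (SE 0.31, limma adjusted p = 0.0253), from 0.335 ± 0.213 to 1.69 ± 0.381 RPM. The median of all genes tested also moved in that step, by 0.46. The call lay at the required size of change and was lost under 6 of 10 other settings, with adjusted p up to 0.467 under quantile normalization. It was also lost without oocyte A (adjusted p = 0.0621), oocyte C (0.120), 2-cell A (0.0627) or 2-cell C (0.103). From 8-cell to morula the change was -0.94 (adjusted p = 0.0105), short of the required size. Without morula C it was -1.31 and called (adjusted p = 0.000497), and without 8-cell C -1.21 (adjusted p = 0.00336). This fall was also called with a pseudocount of 0.1 (-2.35, adjusted p = 0.0125) and with scaling to reads in genes (-1.43, adjusted p = 0.0246). The same held with library weights (-1.37, adjusted p = 0.000289) and without both 16-cell C and morula C. It stayed uncalled under 6 of 10 other settings. Neither blastocyst comparison was called for TET3.

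TET2, another TET enzyme, was looked up for comparison after its values had been seen. Its mean was 10.1 ± 1.96 RPM in oocytes, 28.2 ± 11.7 in 8-cell embryos, 8.53 ± 1.21 in the morula and 16.5 ± 3.02 in the blastocyst. TET2 fell from 8-cell to morula (-1.55, SE 0.36, limma adjusted p = 0.000679), the span over which TET1 rose. The log2 ratio of TET1 to TET3 on RPM + 1 was 2.58 ± 0.16 in oocytes, 2.49 ± 0.16 at the 2-cell stage, 3.66 ± 0.30 in 8-cell embryos, 6.72 ± 1.25 in the morula and 6.33 ± 0.85 in the blastocyst. TET3 means were 0.335 RPM in oocytes and 1.69 RPM at the 2-cell stage, near the 1 RPM added. The ratio therefore does not show how these genes changed against each other.

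**Figure D3:**
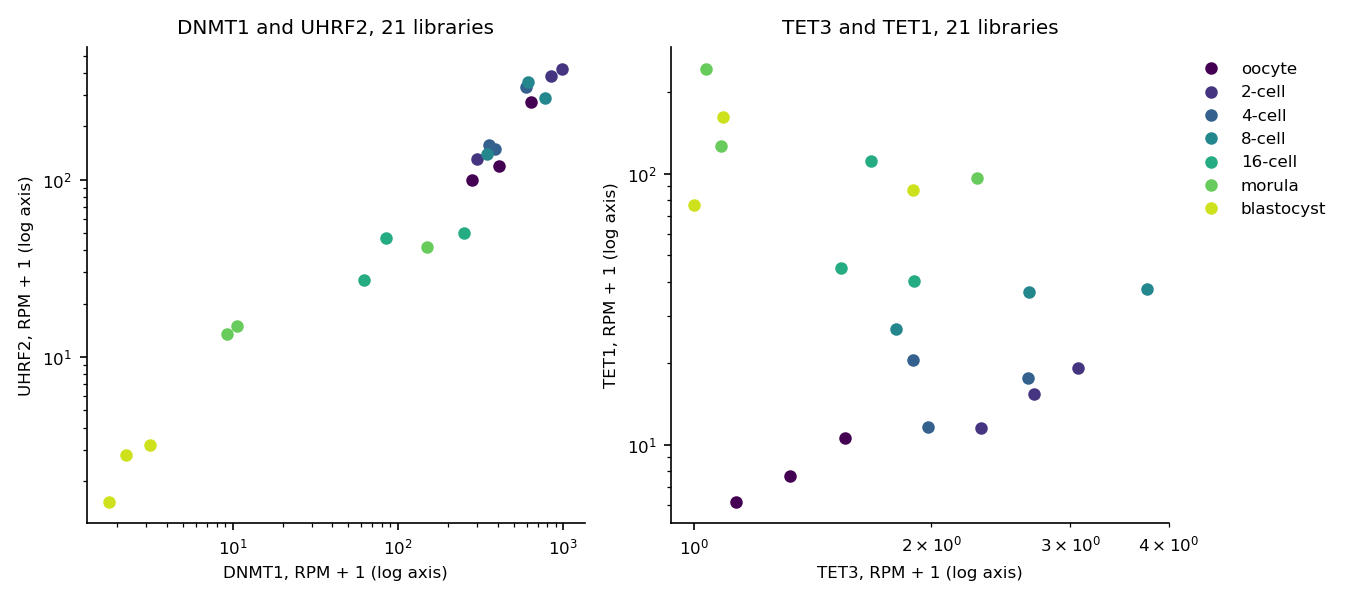
Left, DNMT1 against UHRF2, and right, TET3 against TET1, as RPM + 1 on log axes, with 1 point per library coloured by stage. DNMT1 and UHRF2 lie along a common line (r = 0.979 over 21 libraries), with blastocysts at the low end; TET1 and TET3 do not (r = -0.32).

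GADD45A, a stress-induced protein that has been tied to demethylation through DNA repair, was highest at the 16-cell and morula stages. It lies on chromosome 3 at 43246366 to 43250381 on the plus strand, a span of 4.01 kb and the shortest of the 7. It stood at 20.4, 31.6 and 23.4 RPM in oocytes, 14.3, 21.9 and 14.0 at the 2-cell stage, 8.16, 10.6 and 15.5 at the 4-cell stage and 11.6, 21.2 and 16.5 at the 8-cell stage. The 16-cell libraries held 55.9, 67.6 and 33.0 RPM, the morulae 42.0, 91.7 and 87.2 and the blastocysts 20.1, 21.6 and 12.3. Every 16-cell and morula library exceeded every library of the other 5 stages.

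GADD45A rose by 1.59 from the 8-cell to the 16-cell stage (SE 0.41, limma adjusted p = 0.00282), against a median of -0.52 for all genes tested. This call stood in all 21 fits without a library, with adjusted p up to 0.0212. It fell by 1.93 from morula to blastocyst (SE 0.41, adjusted p = 0.000657), where the median of all genes was -0.50. That fall was not called under median-ratio scaling (-1.01, adjusted p = 0.0956), quantile normalization (-0.91, adjusted p = 0.110) or with library weights (adjusted p = 0.0574). Blastocysts and oocytes, at 18.0 ± 4.99 and 25.1 ± 5.81 RPM, overlapped, and the change of -0.47 was not called (adjusted p = 0.314). The relatives GADD45B and GADD45G, looked up after their values had been seen, had stage means of at most 2.40 and 3.46 RPM, and GADD45G had 0 reads in all 3 oocyte libraries.

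Step by step, the calls fell mostly where many genes were called. From oocyte to 2-cell 1 of the 7 was called, TET3, against 14.5% of all genes tested and 14% called higher, and 3 of 7 did not overlap between the stages (DNMT3A, TET1 and TET3), against 50.3% of all genes. From 2-cell to 4-cell limma called 0 of 7, and 0 of 7 had an unadjusted p under 0.05; the share of all genes called was 0%, with 326 of 10384 at an unadjusted p under 0.05. No library set separated in that step for any of the 7, against 15% of all genes. From 4-cell to 8-cell 0 of 7 were called by limma, against 0.385% of all genes. TET1 was the 1 gene of 7 at an unadjusted p under 0.05 and the 1 gene without overlap, against 30.2% of all genes without overlap. TET1 was called in this step with library weights (1.04, adjusted p = 0.00241) and when only the libraries of these stages were fitted (1.04, adjusted p = 0.0437). These settings called 728 of 10384 and 422 of 8292 genes, against 40 of 10384 in the fit used here.

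From 8-cell to 16-cell 4 of 7 were called, against 46.1% of all genes. DNMT1, UHRF2 and DNMT3A fell, a direction shared by 30.7% of all genes, and GADD45A rose, as did 15.4%. Libraries did not overlap for 5 of 7, these 4 and TET1, against 64.7%. From 16-cell to morula 2 of 7 were called, DNMT1 lower and TET1 higher, against 17% of all genes (7.59% lower and 9.44% higher), and 0 of 7 had libraries that did not overlap, against 22.3%. From morula to blastocyst 5 of 7 were called, against 35.9% of all genes. DNMT3A and DNMT3B rose, as did 7.74% of all genes, and DNMT1, UHRF2 and GADD45A fell, as did 28.1%. The same 5 had libraries without overlap, against 40% of all genes.

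Across longer spans 4 of 7 were called from 8-cell to morula, against 57% of all genes (36.6% lower and 20.4% higher), with DNMT1 (-4.48, SE 0.76) and UHRF2 (-3.58, SE 0.55) lower and TET1 and GADD45A (2.06, SE 0.41) higher. Without morula C the DNMT1 change over this span was -5.78. Libraries did not overlap for these 4 and DNMT3B, 5 of 7 against 69.1%. Between oocyte and blastocyst 5 of 7 were called, against 57.4% (36.6% lower and 20.8% higher), with DNMT1 and UHRF2 lower and DNMT3A, DNMT3B and TET1 higher, and these 5 had no overlap, against 69.9%. With the F test of limma over all 7 stages, 7 of 7 passed at an adjusted p under 0.05, against 92.5% of all genes, with TET3 at 0.00442 and the others at 2.78e-05 or below. TET3 did not pass it under median-ratio scaling or quantile normalization. With 7 genes these shares are a description beside those of all genes, and comparisons that share a stage share its libraries.

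The order of stages differed between genes. DNMT1 and UHRF2 had the same order by mean: 2-cell, 8-cell, 4-cell, oocyte, 16-cell, morula and blastocyst, with non-overlapping neighbours only at oocyte against 16-cell and morula against blastocyst. For DNMT3A and DNMT3B the only neighbours in the order that did not overlap were the blastocyst and the stage next below it, the 8-cell stage for DNMT3A and the oocyte for DNMT3B. TET1 was ordered from morula down to blastocyst, 16-cell, 8-cell, 4-cell, 2-cell and oocyte. TET3 was highest at the 8-cell and 2-cell stages and each stage overlapped the next in its order. For GADD45A the break lay between the 16-cell stage and the oocyte, with morula and 16-cell above it.

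On the deposited RPKM scale the 7 genes looked different, because most are long. In oocytes the mean was 10.1 ± 4.14 RPKM for DNMT1, 6.27 ± 1.45 for GADD45A and 2.32 ± 1.36 for UHRF2. The other 4 lay lower, above a deposited minimum of 0.01 RPKM, at 0.118 ± 0.0459 for DNMT3B, 0.0689 ± 0.0184 for TET1, 0.0348 ± 0.00511 for DNMT3A and 0.0163 ± 0.00401 for TET3. These are levels per kilobase of gene span, not of mRNA, so they do not rank the mRNAs. Only 4 of 7 genes passed a filter of 1 RPKM in 3 libraries: DNMT1, UHRF2, TET1 and GADD45A. Of these 4, limma called 3 from 8-cell to 16-cell (35.3% of 4253 genes tested), 1 from morula to blastocyst (29.2%), 3 from 8-cell to morula (48.7%) and 2 from oocyte to blastocyst (48.3%). It called 0 from oocyte to 2-cell (4.77%), 2-cell to 4-cell (0%), 4-cell to 8-cell (0.682%) and 16-cell to morula (16.1%), where 0, 0, 0 and 1 of them had an unadjusted p under 0.05. Log2(RPKM + 1) shrank the falls of DNMT1 and UHRF2 from morula to blastocyst to -0.84 (adjusted p = 0.185) and -0.35 (adjusted p = 0.414), and neither was called. TET1 from 8-cell to morula became 0.80 (adjusted p = 0.000521) and from oocyte to blastocyst 0.81 (adjusted p = 0.000496), both under the required size of change, although TET1 reads went from 280 to 449 per oocyte library to 2677 to 7284 per blastocyst library.

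The genes whose levels followed each of the 7 most closely were taken from 7922 genes with a symbol that passed the filter, by Pearson correlation of log2(RPM + 1) over the 21 libraries, and are given as a description, since the libraries share stages and depth. For DNMT1 they were WDR76, NEB and MPHOSPH9 (each r = 0.990), and for UHRF2 ZNF215, CSPP1 (both r = 0.983) and WDR47 (0.980). For DNMT3A they were UBOX5 (0.921), CDC34 (0.911) and POU5F1 (0.910), the last being the pluripotency factor OCT4. For DNMT3B they were INAVA (0.921), PNPLA2 (0.920) and TPD52 (0.916). For TET1 they were EIF4G1 (0.943), a translation initiation factor, EXOC1 (0.940) and SAFB (0.936). For TET3 they were ECE1 (0.924), UNC13B (0.910) and PLEKHA6 (0.904), and for GADD45A DDX55 (0.901), MKX (0.896) and GLB1L3 (0.891). Within the set, the correlation of DNMT1 was 0.979 with UHRF2, 0.65 with TET3 and -0.74 with TET1.

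The partners of these genes were drawn from 6 lists with 82 genes, of which 72 were in the table and 56 passed the filter. Among the 56, 5 (8.93%) were called higher and 24 (42.9%) lower from 8-cell to 16-cell, against 15.4% and 30.7% of all genes, with a median change of -0.86 against -0.52. From morula to blastocyst 3 (5.36%) were called higher and 14 (25.0%) lower, against 7.74% and 28.1% (median -0.63 against -0.50). The 3 became 1 without blastocyst A or B and 2 without morula C. Over all genes the 804 called higher became 634 without blastocyst A, 703 without blastocyst B and 811 without morula C. From oocyte to 2-cell 6 (10.7%) were called higher, against 14%, and 0 lower by limma, with 21 at an unadjusted p under 0.05. The 6 became 0 without oocyte C, 1 without 2-cell C, 3 without 2-cell A, 4 without oocyte A and 9 without 2-cell B or morula C. Over all genes the 1451 called higher became 780 without 2-cell C, 1091 without 2-cell A and 1155 without 2-cell B. From 16-cell to morula 2 (3.57%) were called higher and 3 (5.36%) lower, against 9.44% and 7.59%. The 3 became 15 without morula C, 1 without 16-cell C and 0 without morula A or B. Over all genes the 788 called lower became 2033 without morula C, 489 without 16-cell C, 285 without morula A and 398 without morula B. Under median-ratio scaling the counts were 7 higher and 16 lower from 8-cell to 16-cell and 8 and 5 from morula to blastocyst. They were 0 and 0 from oocyte to 2-cell and 2 and 9 from 16-cell to morula. Over all genes, that scaling gave 2023 and 1782, 1819 and 1568, 182 and 314, and 856 and 1296 in these steps. The balance of calls from morula to blastocyst turned for the lists and for all genes alike. From 2-cell to 4-cell and from 4-cell to 8-cell none was called by limma, with 3 and 9 of the 56 at an unadjusted p under 0.05. With library weights, 7 were higher and 1 lower from 4-cell to 8-cell. Over all 10384 genes, this setting called 442 higher and 286 lower in that step, against 30 and 10 without weights.

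**Figure D4:**
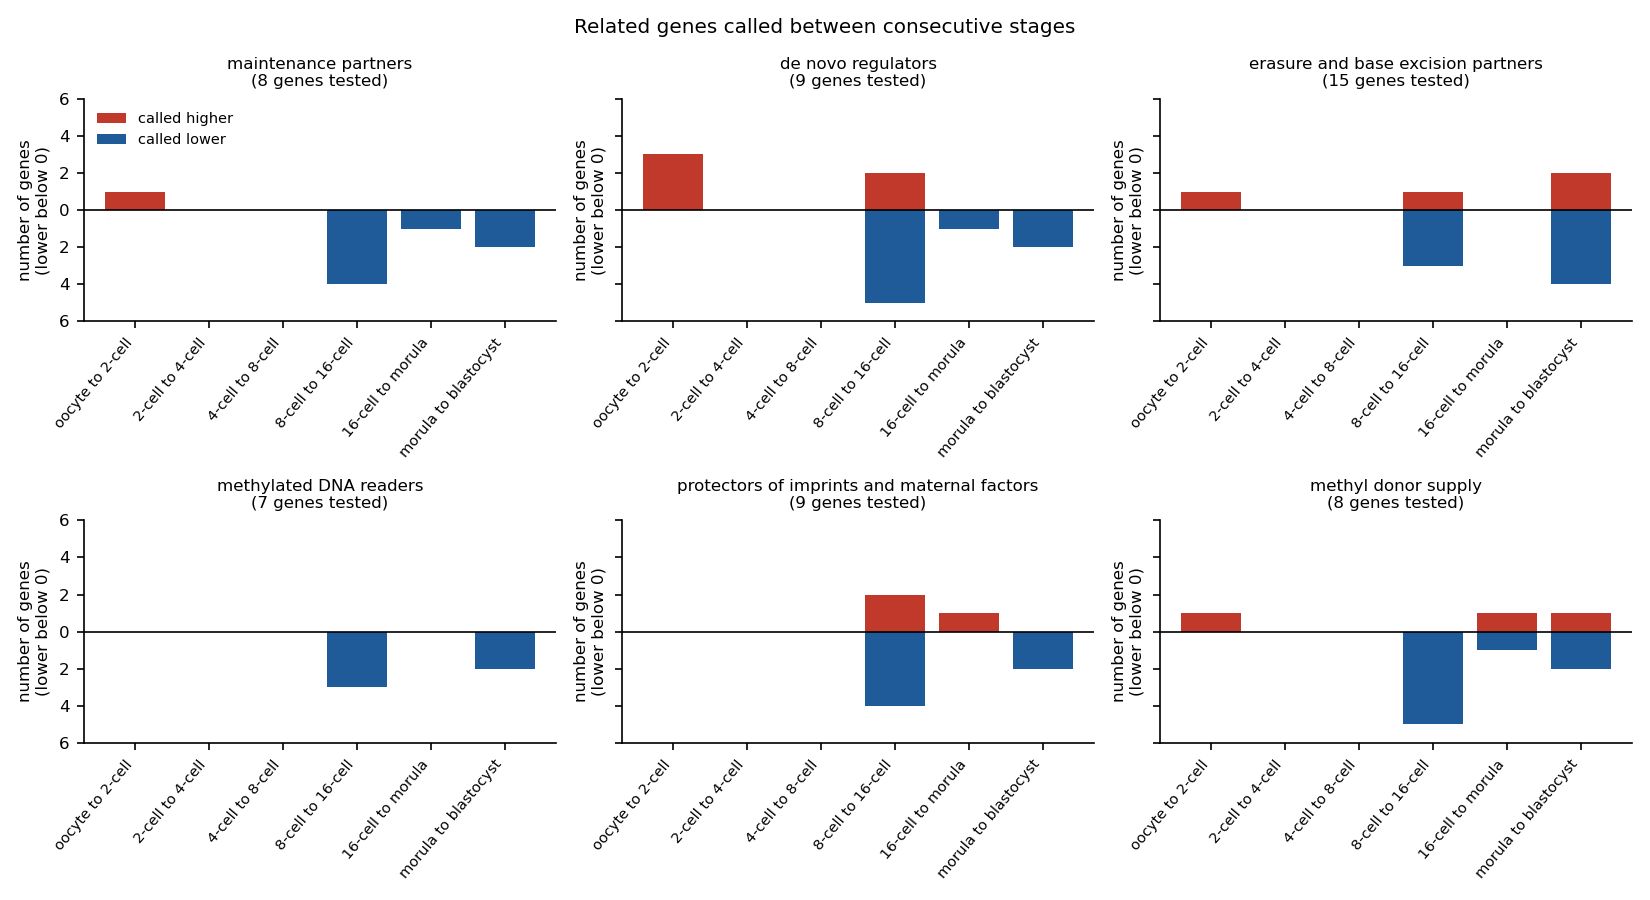
Number of genes called higher (red, above 0) and lower (blue, below 0) in each consecutive step, for 6 lists of genes related to DNA methylation, with the number tested in each title. From 8-cell to 16-cell every list has genes called lower, 24 of 56 in all, and from 2-cell to 4-cell and 4-cell to 8-cell no list has a call.

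Partners of maintenance methylation had 7 of 8 tested genes lower in blastocysts than in oocytes and 0 higher, against 36.6% lower and 20.8% higher over all genes, with a median change of -2.33 against -0.44. The 8 include UHRF1. The replication clamp PCNA, which tethers DNMT1 at the fork, fell from morula to blastocyst, from 1080 ± 664 to 171 ± 219.6 RPM (-3.44, limma adjusted p = 0.000415). LIG1, the ligase of lagging strand synthesis, fell from 16-cell to morula (-1.42, adjusted p = 0.0397), with overlapping libraries, and the call was lost under 7 of 33 alternatives, with adjusted p up to 0.232. The chromatin remodeller HELLS was the 1 gene of the 8 not called from oocyte to blastocyst, at 19.9 ± 5.36 RPM in oocytes and 13.5 ± 2.36 in blastocysts.

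Regulators of de novo methylation moved both ways. From oocyte to 2-cell 3 of 9 tested were called higher, against 14% of all genes, including the histone methyltransferases SETDB1 (1.41, limma adjusted p = 0.0355) and NSD1 (1.85, adjusted p = 0.00927). These calls were lost under 10 and 5 of 32 alternatives, with adjusted p up to 0.308 and 0.159, among them median-ratio scaling and the fits without oocyte C or 2-cell C. From 8-cell to 16-cell 2 were called higher and 5 lower, against 15.4% and 30.7% of all genes. NSD1, which places the H3K36 methylation that DNMT3A reads, rose from 17.1 ± 4.92 to 157 ± 90.6 RPM (2.93, adjusted p = 4.44e-05). NSD1 then fell to 54.9 ± 23.4 RPM in the morula (-1.37, adjusted p = 0.0436), a call lost under 15 of 32 alternatives, among them those without morula A or morula B, with adjusted p up to 0.224. From morula to blastocyst it fell to 11.7 ± 2.99 RPM (-2.06, adjusted p = 0.00131), a call lost under median-ratio scaling and quantile normalization. SETD2, which trimethylates H3K36, rose from 0.549 ± 0.0790 to 14.2 ± 9.06 RPM (3.10, adjusted p = 3.77e-06). KDM1B, the histone demethylase needed for methylation of maternal imprints in the oocyte, fell from 19.8 ± 2.73 to 2.81 ± 2.26 RPM (-2.60, adjusted p = 0.000421).

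Partners of erasure and base excision had 4 of 15 tested genes higher and 4 lower in blastocysts than in oocytes, against 20.8% and 36.6% of all genes, with a median change of 0.10 against -0.44. TDG, the glycosylase that removes oxidised methylcytosine, had a mean of 0.00632 RPM in oocytes and 2.77 ± 0.981 in blastocysts. It rose between them (1.87, limma adjusted p = 3.52e-08), a call lost with a pseudocount of 5. The oocyte mean lies below the 0.0185 to 0.0213 RPM that 1 read was worth in an oocyte library. TDG is named here after its values were seen. Among readers of methylated DNA, 3 of 7 tested genes fell from 8-cell to 16-cell, against 30.7% of all genes, ZBTB33 (Kaiso) from 157 ± 36.7 to 24.6 ± 14.9 RPM (-2.78, adjusted p = 0.000324).

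In the list of imprint protectors and maternal factors, 5 of 9 tested genes were lower and 1 higher in blastocysts than in oocytes, against 36.6% and 20.8% of all genes. TRIM28, the corepressor that keeps imprinted regions methylated, rose from 16-cell to morula (1.82, limma adjusted p = 0.00548), from 1.78 ± 1.43 to 8.53 ± 3.82 RPM, a call lost under 3 of 33 alternatives but in no fit without a library. RBBP7, a histone-binding protein, fell from morula to blastocyst, from 208 ± 113 to 42.0 ± 38.6 RPM (-2.59, adjusted p = 0.000648). In the supply of the methyl donor, 5 of 8 tested genes fell from 8-cell to 16-cell and 0 rose, against 30.7% and 15.4% of all genes. AHCY, which clears the product of methyl transfer, went the other way later, rising from 16-cell to morula (1.77, adjusted p = 0.00135), a call lost on the RPKM scale and with the compared stages alone (adjusted p up to 0.108), and from 16.2 ± 4.41 to 146 ± 10.8 RPM from morula to blastocyst (3.13, adjusted p = 3.78e-07). MAT2B, a subunit of the enzyme that makes the methyl donor, fell from 16-cell to morula (-1.86, adjusted p = 0.0137), with overlapping libraries, at 395 ± 180.4 and 146 ± 151 RPM, and the call was lost without 16-cell C, morula A or morula B and with the compared stages alone (adjusted p up to 0.154).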

How the data were processed

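The authors deposited a table of RPKM values for 21 libraries. The submitters' processing notes name FastQC, STAR 2.5.3a and Partek; build, strandedness and the way reads were counted were not given in the sources used here. Every deposited value holds an offset of 0.01 and is divided by the gene's span from start to stop, introns included, which was tested on the values: with both undone, 94.7% to 96.4% of low values in a library were whole numbers of reads within 0.05 of a read. RPM is (RPKM − 0.01) times the span in kb. No protein-coding or lincRNA row overlaps any of the 7 genes, but the spans of 4 small RNA rows, each 42568 kb or longer, run across DNMT1, DNMT3A or TET3, with at most 115 reads in a library. Libraries were grouped by their titles. limma 3.58.1 in R 4.3.3 (trend, robust) was fitted to log2(RPM + 1) of 10384 genes in all 21 libraries with a mean per stage, for 8 comparisons, with two-sided tests adjusted over all genes tested. The script was tested on simulated data. Depth was 8.47 to 26.7 M reads in genes per library. Alternatives were the RPKM scale, pseudocounts of 0.1 and 5, no filter and a filter of 5 RPM, 3 scalings, a replicate block, library weights, fits of the compared stages alone and fits without libraries.

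The 7 genes, the lists of partners and the markers were chosen with earlier results of these data known. Named by rule were the 7 genes, the 3 genes most correlated with each, and for each consecutive step up to 2 rising and 2 falling partners with the largest change. A partner that this rule names is not reported here. Markers of oviduct and uterine epithelium summed to at most 16.0 RPM and those of sperm to at most 3.27 RPM in any library. No sequence is given.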

Additional observations from a re-analysis of the deposited data

How the results depend on the processing

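Of 2032 values of single genes under other settings, 1945 kept their side of the threshold, 70 lost the call and 17 gained it. Of the 1812 that are changes between stages, 30 took the opposite sign, all among values called neither before nor after. The number of the 7 genes called from oocyte to 2-cell was 0 to 1 without single libraries, where the fits without 2-cell A and 2-cell C called 1129 and 794 of all genes. It was 0, not 1, on the RPKM scale, with pseudocounts of 0.1 and 5, a filter of 5 RPM, scaling to reads in genes, median-ratio scaling and quantile normalization. The settings with 0 called 203 to 1283 of all genes tested, against 1501 in the fit used above. From 4-cell to 8-cell the number of the 7 genes was 1, not 0, with library weights and with the compared stages alone. These settings called 728 and 422 of all genes tested, against 40. From 8-cell to 16-cell, against 4, the number was 2 to 4 without single libraries and 3 on the RPKM scale and with a pseudocount of 5. It was 5 under median-ratio scaling and quantile normalization, with library weights and with the compared stages alone. Over all genes 4789 were called there, 3680 to 5445 without single libraries, 1502 on the RPKM scale and 2847 with a pseudocount of 5. The settings with 5 called 3805, 4119, 5600 and 4923 of all genes, in that order. From 16-cell to morula, against 2, the number was 0 to 3 without single libraries, in fits that called 840 to 3404 of all genes. It was 0 on the RPKM scale, with no filter and with the compared stages alone, where 683, 1422 and 75 of all genes were called. It was 1 with a pseudocount of 5, scaling to reads in genes, median-ratio scaling and library weights. These settings called 946, 2304, 2152 and 2278 of all genes, against 1768 in the fit used above. From morula to blastocyst, against 5, the number was 1 on the RPKM scale and 2 with library weights, whose estimation stopped before it converged. Over all genes 1244 of 4253 were called on the RPKM scale and 1792 of 10384 with library weights, against 3727 of 10384. From oocyte to blastocyst the number of the 7 genes was 2 on the RPKM scale, against 5, and over all stages 4 against 7. On that scale 3 of the 7 genes were not tested. Without both 16-cell C and morula C, 4, 2 and 5 genes were called in the last 3 consecutive steps, as with them. With the library letter as a replicate block the counts were 4, 2 and 5 as well. On average the letters did not pair the libraries of different stages. Deviations of same-letter libraries correlated at -0.0036 on average over 63 pairs (-0.30 to 0.39), with 13 over 0.1. For different letters the mean was 0.0019 over 126 pairs, with 29 over 0.1. Pairing within only some of the stages was not tested.

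Scaling moved the split of calls over all genes. The median gene changed by 0.46 from oocyte to 2-cell, -0.52 from 8-cell to 16-cell and -0.50 from morula to blastocyst. The share of calls that were higher was 96.7%, 33.5% and 21.6% in these steps, 36.7%, 53.2% and 53.7% under median-ratio scaling, and 50.6%, 47.6% and 50.6% under quantile normalization. From 16-cell to morula it was 55.4%, and 39.8% and 45.1% under median-ratio scaling and scaling to reads in genes. From oocyte to blastocyst it was 36.2%, and 46.6% and 49.1% under median-ratio scaling and quantile normalization; from 8-cell to morula 35.8%, and 47.4% under the latter. TET3 had 0 to 138 reads per library, so few reads stand behind its values.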
